A study of Rattus norvegicus with 25 samples.

Results

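Gene expression in the esophageal epithelium was compared between all rats that had received N-nitrosomethylbenzylamine (NMBA), whatever their diet, and rats that had not. The exposed arm held 20 of the 25 arrays of the series, taken as every array whose title begins with NMBA, and the other 5 arrays were the Control rats. The exposed rats formed 4 groups of 5 animals: NMBA on a normal diet (NMBA), NMBA with alpha-tocopherol (NMBA+Alpha-T), NMBA with delta-tocopherol (NMBA+Delta-T) and NMBA with a mixture enriched in gamma-tocopherol (NMBA+Gamma enriched-T). Control rats ate the normal diet and received no NMBA. All animals were male F344 rats, an inbred strain, and each array carried the total RNA of 1 rat. The labels state no ages, doses, routes or times, and no rats were given a tocopherol without NMBA, so the effect of a tocopherol alone could not be measured. The comparison asks which differences from Control were present after the carcinogen under each of the diets.

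NMBA is a nitrosamine that produces tumours of the esophagus in rats. Cytochrome P450 enzymes in the epithelium hydroxylate it to unstable products that methylate DNA, mainly at guanine, and the alkyl group on guanine is removed by the repair protein encoded by Mgmt or leads to mispairing that the mismatch repair proteins recognise. The rat esophagus is lined by a keratinised squamous epithelium whose basal cells divide and whose upper cells differentiate. Tocopherols are forms of vitamin E that act as lipid-soluble antioxidants and differ in the methyl groups on their ring.

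Levels are given as log2 signal relative to the 75th percentile of the same array, so a level of 0 is the signal of a probe at that percentile, and differences are in log2 units, where 1 unit is a 2-fold change. Across the arrays 70.6% to 79.8% of spots were well above background, the 75th percentile of signal lay between 2469 and 6744 intensity units, and 0 spots were saturated. The squamous markers Krt5, Krt14, Krt15, Tp63, Krt4 and Krt13 were well above background on 25 of 25 arrays, and none of them differed between exposed and Control rats past the test. The arrays sat on 4 slides that held the groups unevenly. Slide 3 carried 4 of the 5 NMBA rats and 4 of the 5 Control rats, while Control rat 1 shared slide 2 with the 5 NMBA+Gamma enriched-T rats and 2 of the NMBA+Delta-T rats. The 5 NMBA+Alpha-T rats and the other 3 NMBA+Delta-T rats were on slide 1, without a Control rat. For those animals exposure and slide can be separated only through the rats on other slides. NMBA rat 5 was alone on slide 4, so it adds nothing to a fit in which slide is a fixed block.

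The largest rises in exposed rats were in a gut hormone gene, a hair keratin gene and a chemokine gene. The incretin hormone gene Gip, the keratin gene Krt82 and the chemokine gene Cxcl10 were higher by 4.97 ± 0.27, 3.51 ± 0.28 and 2.87 ± 0.42 log2 units (difference of the pooled means ± SE). Among falls in which no exposed rat overlapped a Control rat, the P450 gene Cyp1a1, the proteoglycan gene Sdc3 and the axonemal protein gene Cfap68 were lower by 1.22 ± 0.23, 0.73 ± 0.12 and 0.73 ± 0.11 log2 units in exposed rats. The largest called fall of all was that of the glutamate receptor gene Grik2, at -1.35 ± 0.31, with overlap between the groups. Its call was lost without Control rat 1, 3, 4 or 5 (limma adjusted p of 0.0569 to 0.154). It was also lost without NMBA+Alpha-T rat 3, NMBA+Delta-T rat 4 or NMBA+Gamma enriched-T rat 5 (up to 0.0519). In total 97 of 12343 genes, or 0.786%, passed limma's moderated test of the pooled exposed mean against the Control mean (Benjamini-Hochberg adjusted p under 0.05). Of these, 85 (0.689% of the genes tested) were higher and 12 (0.0972%) were lower in exposed rats. At least a 2-fold difference was found for 41 of them, 39 higher and 2 lower. At an unadjusted p under 0.05 the count was 1548 (12.5%), and for each list without a call below the number of members under that p is given.

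The 97 genes were called on the mean of the 4 group differences, which share the 5 Control rats, so the selection favoured a shared sign. How many of all genes tested had a shared sign was not counted. All 97 genes had the same sign of difference in each of the 4 exposed groups. That sign was also kept by all 97 with slide as a fixed block and within slides 2 and 3, from rats that had also entered the calls. Past the threshold, however, 11 genes (0.0891%) were called with slide as a fixed block, and 8 of these were among the 97: Gip, Krt82, Fgf13, Wfdc3, Adm2, Mmp10, Bbox1 and Grip1. Within slide 3 alone, which sets 4 NMBA rats against 4 Control rats, 33 genes (0.267%) were called, 20 of them among the 97. Within slide 2 alone, with a single Control rat, 2 genes (0.0162%) were called. The count was 46 without Control rat 4 and 53 without Control rat 5, and 35 of the 97 genes kept their call in each of the 25 fits that left out 1 rat.

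Few genes passed the test against Control in each of the exposed groups. For each gene the largest of the 4 group p-values was adjusted over all genes, and 7 genes (0.0567%) stayed under 0.05 with all 4 differences of 1 sign, all of them higher in exposed rats. They were Gip, Krt82, Atp13a5, Fgf13, Klk1c8, Inpp5d and Wfdc3. The 5 Control rats were shared by the 4 group differences. The simulated rats had independent normal noise at each gene and the same shift in every exposed rat, without slide or diet differences. Recovery in the real data may therefore be lower. In these simulated data the test in each group recovered 52% of genes set to differ by 1 log2 unit and 86% of those set to 2. A gene that did not pass it may therefore still differ under each diet.

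Gip encodes glucose-dependent insulinotropic polypeptide, a hormone that enteroendocrine K cells of the small intestine release after a meal. Its level in the 20 exposed rats ran from -3.40 to -1.23 with a median of -2.27. In the Control rats it was -7.95, -7.16, -7.95, -6.52 and -6.45. The lowest exposed rat thus lay well above the highest Control rat. The group means were -1.62 ± 0.40 in NMBA, -2.62 ± 0.62 in NMBA+Alpha-T, -2.52 ± 0.57 in NMBA+Delta-T and -2.21 ± 0.41 in NMBA+Gamma enriched-T rats, against -7.21 ± 0.73 in Control rats (SD, n = 5 each). Relative to Control this gave differences of 5.59, 4.59, 4.69 and 5.00 log2 units in the NMBA, alpha, delta and gamma-enriched groups. The pooled difference was 31.3-fold (limma adjusted p = 2.42e-11), the conjunction over the groups had an adjusted p of 1.93e-08, and the 4 exposed groups did not differ past the F test (adjusted p = 0.166). The probe was well above background on 20 of 20 exposed arrays and 2 of 5 Control arrays, and with normexp background correction, which lifts dim signals, the pooled difference was 2.90.

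Krt82 encodes a type II keratin of the hair cuticle. Its level lay between -5.22 and -3.19 in exposed rats, with a median of -4.34. The Control rats stood at -8.19, -7.55, -8.21, -7.39 and -7.71, and its probe was well above background on 0 of 5 Control arrays and on 20 of 20 exposed arrays. Because a signal that is not above background bounds a fold only from below, the exposed level was at least 9.11-fold the Control level, with the lowest signal well above background on each Control array taken where it exceeded the probe's own. The differences were 3.66, 3.40, 3.37 and 3.60 log2 units in the NMBA, alpha, delta and gamma-enriched groups (pooled adjusted p = 6.90e-08), a range of 0.29 among groups. With normexp correction the pooled difference was 1.30 log2 units, so the bound holds for the processed signals only.

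Fgf13 encodes an intracellular member of the fibroblast growth factor family that binds sodium channels and microtubules. It had the most even response relative to its size among genes that differed at least 2-fold: 1.79 log2 units in the NMBA, 1.90 in the alpha, 1.91 in the delta and 1.79 in the gamma-enriched group, or 1.85 ± 0.21 pooled (limma adjusted p = 1.17e-05). Exposed rats lay between -3.17 and -2.28 with a median of -2.63. Control rats lay at -5.61, -3.95, -4.93, -3.68 and -4.16, all below every exposed rat but more widely spread than they. A second Fgf13 probe gave 1.58. Gip and Fgf13 also kept their calls with slide as a block, at 5.85 and 2.74, and so did Krt82 at 4.19, in the pooled comparison and in each exposed group.

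The 250 bases before the annotated start of Gip and of Fgf13 are shown because these genes combined a large or an even difference in all the diets. They are written on the gene strand from RefSeq's GRCr8 assembly, with matches to TGANTCA, the AP-1 consensus, in capitals.
Gip, chr10:81464820-81465069, + strand: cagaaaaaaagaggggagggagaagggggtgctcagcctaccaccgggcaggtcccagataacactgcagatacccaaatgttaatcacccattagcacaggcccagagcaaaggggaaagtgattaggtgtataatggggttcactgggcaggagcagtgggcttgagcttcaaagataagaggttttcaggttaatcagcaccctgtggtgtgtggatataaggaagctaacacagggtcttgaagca
Fgf13, chrX:142423537-142423786, - strand: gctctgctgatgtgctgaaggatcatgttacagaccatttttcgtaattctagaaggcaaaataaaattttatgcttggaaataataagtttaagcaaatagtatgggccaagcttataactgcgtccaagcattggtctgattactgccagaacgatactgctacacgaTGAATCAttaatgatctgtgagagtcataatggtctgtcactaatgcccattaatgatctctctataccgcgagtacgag
These windows were searched for 4 patterns of letters, on both strands except for TATAAA and with overlapping matches counted: the core of the interferon-stimulated response element (ISRE), TGANTCA (AP-1), GCGTG (the core of the xenobiotic response element) and TATAAA. The Gip window held none of the 4. The Fgf13 window held TGAATCA, which starts 80 bases before the annotated start, and none of the others. Over all 33469 rat promoter windows of this length, TGANTCA occurred in 6.34% and GCGTG in 25.89%. In the 66 windows of 64 genes called higher in exposed rats, the shares were 6.06% and 42.42%. Of the 97 called genes, 74 had an entry in the promoter table.

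The other 4 genes that passed in each exposed group had smaller differences. Atp13a5, a transport ATPase of the cell's inner membranes, was at -5.24 to -3.26 in exposed rats with a median of -4.18. In Control rats it was -6.22, -7.36, -5.76, -7.21 and -6.16, so the lowest exposed rat, from the alpha group, still lay above the highest Control rat. The differences were 2.78, 2.25, 2.20 and 2.30 log2 units in the NMBA, alpha, delta and gamma-enriched groups, and 1.19 pooled with normexp correction. The Atp13a5 probe was well above background on 20 of 20 exposed and 2 of 5 Control arrays. Klk1c8, a serine protease of the glandular kallikrein family, whose members have near-identical copies that a probe may not separate, was higher by 1.82, 1.63, 1.74 and 1.63. Its exposed rats ran from -4.57 to -2.80 with a median of -3.44, and its Control rats were at -5.12, -6.27, -4.89, -5.10 and -4.74. Inpp5d encodes an inositol phosphatase of blood cells. It was the least even of the 7, at 1.42, 0.82, 0.95 and 0.89 log2 units, and its exposed groups differed by the F test (adjusted p = 0.0273); a second, dimmer probe gave 0.60 pooled. Wfdc3, a small secreted protein with a whey acidic protein core, differed by 1.15, 0.83, 0.91 and 0.85 log2 units. Exposed rats had -3.30 to -2.25 at Wfdc3 with a median of -2.79, against -3.79, -3.83, -3.78, -3.65 and -3.48 in Control rats.

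Klk1c8 no longer passed in each group in 10 of the 25 fits without 1 rat (adjusted p up to 0.130), namely without alpha rats 1, 4 or 5, delta rat 5, gamma-enriched rats 1, 3 or 4, or Control rats 1, 2 or 4. Inpp5d did not pass in each group without alpha rat 1 or 3 or Control rat 2 or 4 (up to 0.0900). It also did not pass with the replicate number as a block (0.0798) or with its probes averaged (1), and Wfdc3 did not with normexp correction (0.482). With slide as a fixed block none of Atp13a5, Klk1c8, Inpp5d and Wfdc3 passed in each group. Atp13a5 was then not called in the pooled comparison either (2.09, limma adjusted p = 0.0538).

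**Figure D1:**
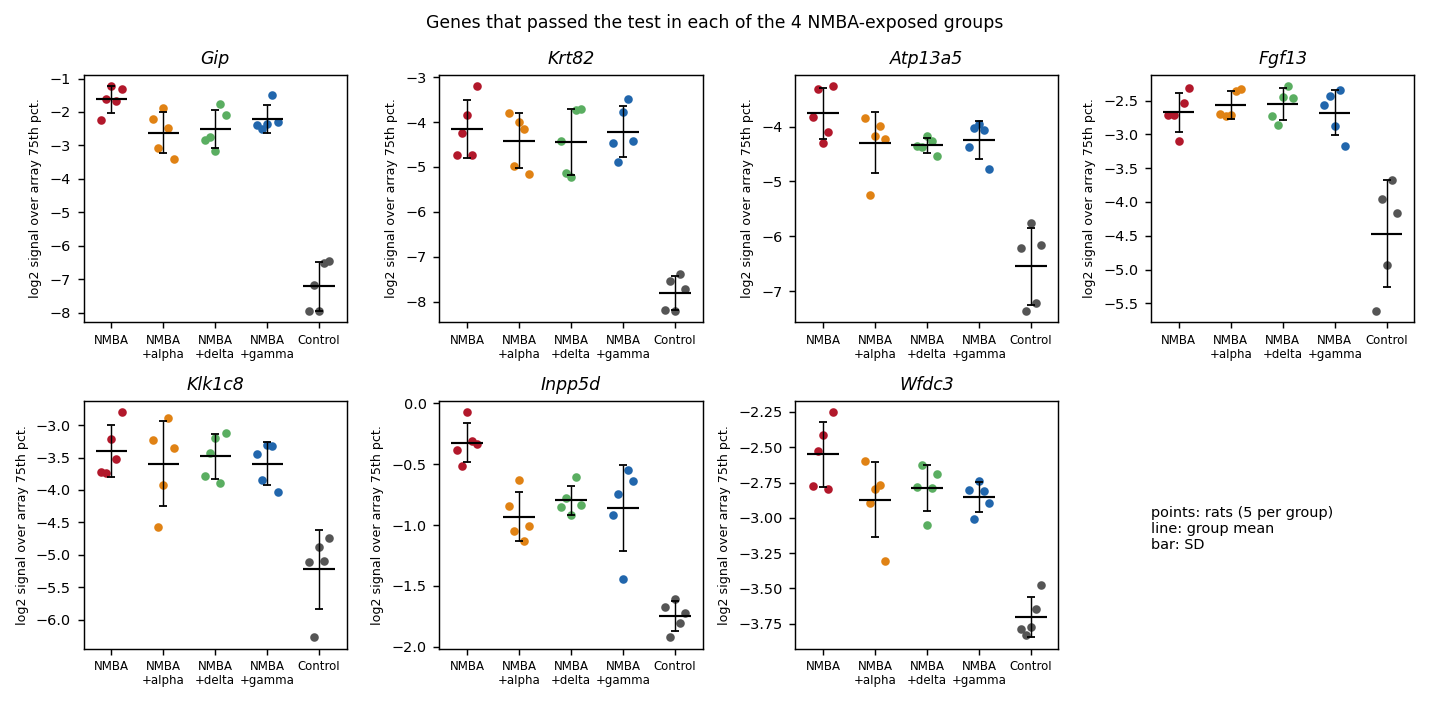
Log2 signal over the 75th percentile of the array for the genes that passed the test in each NMBA-exposed group, with 1 point per rat, a line at the mean and a bar of 1 SD (n = 5 per group); each panel has its own axis. At all 7 genes every exposed rat lies above every Control rat, and the means of the 4 exposed groups lie closer to each other than to the Control mean.

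Of the 97 called genes, 22 separated the animals completely: every exposed rat lay on 1 side of every Control rat. They were 19 genes higher and 3 lower in exposed rats. Among all genes tested, 23 (0.186%) separated in this way, 19 (0.154%) with every exposed rat above and 4 (0.0324%) with every exposed rat below the Control rats, the other being the kinase gene Frk, which was lower by 0.72 without passing the test (adjusted p = 0.158). Besides the 7 above, the largest such rises were in Fosl1, Serpina12, Mat1a, Btnl5, Upb1, Fabp12 and Tnfrsf18.

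Fosl1 encodes Fra-1, a subunit of the AP-1 transcription factor. Its level was -3.54 to -1.61 in exposed rats with a median of -2.61, against -4.09, -5.38, -3.62, -4.58 and -3.66 in Control rats. The gap between the 2 sets of rats was narrow, although the pooled means differed by 1.65 ± 0.29 log2 units (limma adjusted p = 0.00479). The differences by group were 1.95, 1.57, 1.48 and 1.61 in the NMBA, alpha, delta and gamma-enriched groups. Serpina12, the protease inhibitor vaspin, had levels of -0.27 to 1.47 in exposed rats with a median of 0.67, against -1.18, -1.75, -0.98, -0.75 and -0.52 in Control rats. It was higher by 1.90, 1.31, 1.81 and 1.58 in the same order of groups, or 1.65 ± 0.24 pooled (adjusted p = 4.95e-04). Tnfrsf18, which encodes the costimulatory receptor GITR of T cells, had Control levels within a narrow span, at -2.54, -2.65, -2.43, -2.72 and -2.57. Its exposed levels ran from -2.09 to -0.46 with a median of -1.42, a pooled rise of 1.16 ± 0.15 (adjusted p = 1.64e-04).

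Of the other separated genes with large differences, Mat1a, Upb1 and Btnl5 were dim in Control rats. Mat1a, an enzyme that makes S-adenosylmethionine from methionine, was higher by 1.58 ± 0.33 log2 units, with its probe well above background on 3 of 5 Control arrays. Alpha rat 3 reached -2.50 while the other 4 alpha rats lay between -5.44 and -5.24, and the call was lost without Control rat 4 (1.55, adjusted p = 0.0642) or 5 (1.44, 0.0866) and with normexp correction (0.71, 0.119). Upb1, which breaks down pyrimidine bases, was well above background on 0 of 5 Control arrays and 20 of 20 exposed arrays. On the processed signals it was at least 2.53-fold higher in exposed rats, and with normexp correction its pooled difference was 0.50 log2 units. Btnl5, a butyrophilin-like gene, was well above background on 0 of 5 Control arrays and on only 10 of 20 exposed arrays. On the processed signals it was at least 1.53-fold higher, and with normexp correction its pooled difference was 0.53 log2 units. The Btnl5 call was lost without Control rat 1, 3, 4 or 5 (adjusted p of 0.0525 to 0.0741) and without the NMBA group (0.0536). The fatty acid-binding protein gene Fabp12 was higher by 1.27 ± 0.20, by 1.67 in the NMBA group and by 1.11 to 1.17 in the tocopherol groups, with its probe well above background on 20 of 20 exposed and 5 of 5 Control arrays.

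The 3 separated falls were led by Cyp1a1, a P450 enzyme that the aryl hydrocarbon receptor induces. Cyp1a1 levels were -4.16 to -1.59 in exposed rats with a median of -2.53, against -0.93, -1.45, -1.30, -1.40 and -1.27 in Control rats. Relative to Control the differences were -0.89 in the NMBA, -1.68 in the alpha, -0.74 in the delta and -1.55 in the gamma-enriched group, and the 4 exposed groups did not differ past the F test (adjusted p = 0.0741). The pooled fall was 2.33-fold (adjusted p = 0.00853). Cfap68, a protein of cilia and flagella, fell by 0.65, 0.54, 0.95 and 0.77 log2 units in the same order of groups (pooled adjusted p = 4.95e-04). Sdc3, a heparan sulfate proteoglycan, fell by 0.62, 0.80, 0.63 and 0.88, but its second probe stood at -0.14 and the mean of both probes did not pass (-0.43, adjusted p = 0.0726).

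**Figure D2:**
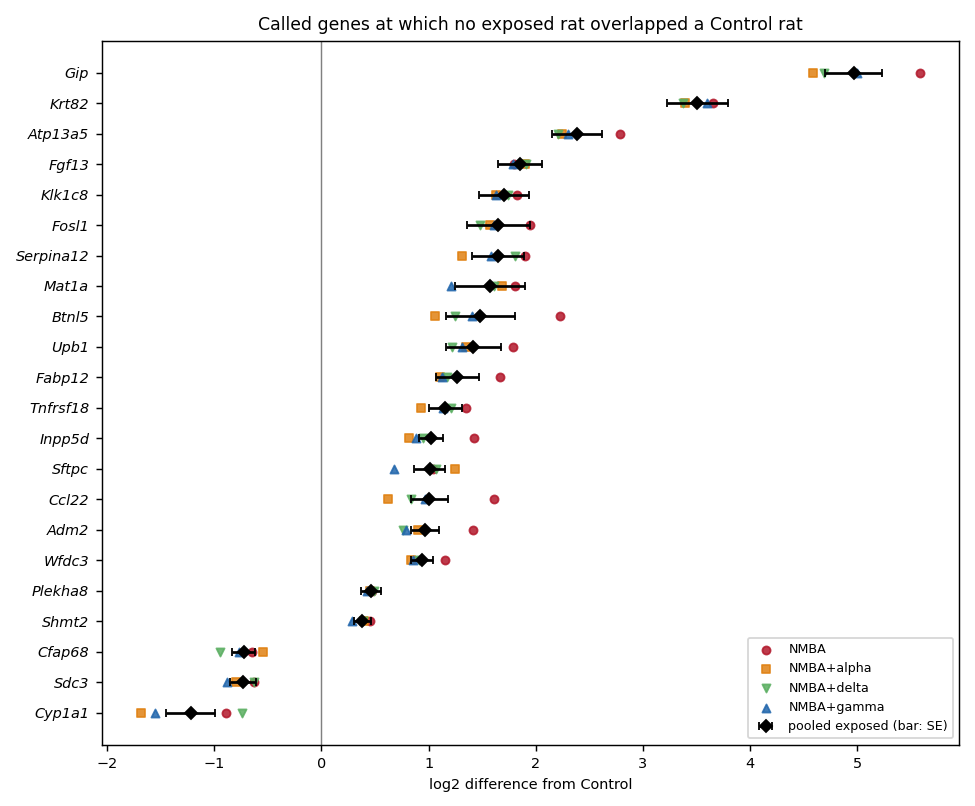
Log2 difference from Control for the 22 called genes at which no exposed rat overlapped a Control rat, with the pooled difference (diamond, bar of 1 SE) and the difference of each exposed group (coloured symbols). Gip at 4.97 and Krt82 at 3.51 stand far to the right, and only Cfap68, Sdc3 and Cyp1a1 are lower in exposed rats.

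A pooled difference can hide unequal groups, so the 4 exposed groups were also compared with each other by a moderated F test with 3 degrees of freedom. That test called 827 of all 12343 genes (6.70%). Among the 97 genes called against Control it called 9, namely Isg15, Cxcl11, Capn9, Cxcl9, Ccl22, Inpp5d, Cxcl10, Ubd and Adm2, and the NMBA group differed most from Control in 8 of them. Ubd, Adm2, Wfdc3, Mmp10, Bbox1, Grip1, Frk, Gipr, Grik2, Mpp4 and Prss16 are named in the text after their values were seen. With slide as a fixed block the F test called 1 gene in all. The exposed groups lie largely on separate slides, and for these genes diet and slide cannot be told apart. Over all 97 called genes the NMBA group had the largest difference in 51, and its share over all genes tested was not counted. Without the NMBA group 123 genes were called against Control, and 74 of the 97 were among them.

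The most even of the genes that differed at least 2-fold, by the pooled difference over the range of the exposed group means, were Fgf13, Krt82, Klk1c8, Hpn, Gip and Mei1. Hpn encodes hepsin, a serine protease of the cell surface. It was higher by 1.24, 1.17, 1.14 and 1.03 log2 units in the NMBA, alpha, delta and gamma-enriched groups (pooled 1.14 ± 0.18, limma adjusted p = 0.00161), with levels of -3.31 to -2.18 in exposed rats and -4.36 to -3.29 in Control rats, and a second probe gave 1.16. Mei1, known for its part in meiotic recombination, was higher by 1.52, 1.56, 1.85 and 1.93. Its probe was well above background on only 8 of 20 exposed arrays and on 0 of 5 Control arrays. On the processed signals Mei1 was at least 1.89-fold higher, and with normexp correction its pooled difference was 0.52 log2 units. At the other end, Capn9, a calpain of the digestive tract, fell by 0.10, 0.42, 0.94 and 0.82 log2 units, so that the NMBA group was nearest to Control. The pooled fall of Capn9 passed at an adjusted p of 0.0482 and was lost in 17 of the 25 fits that left out 1 rat.

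**Figure D3:**
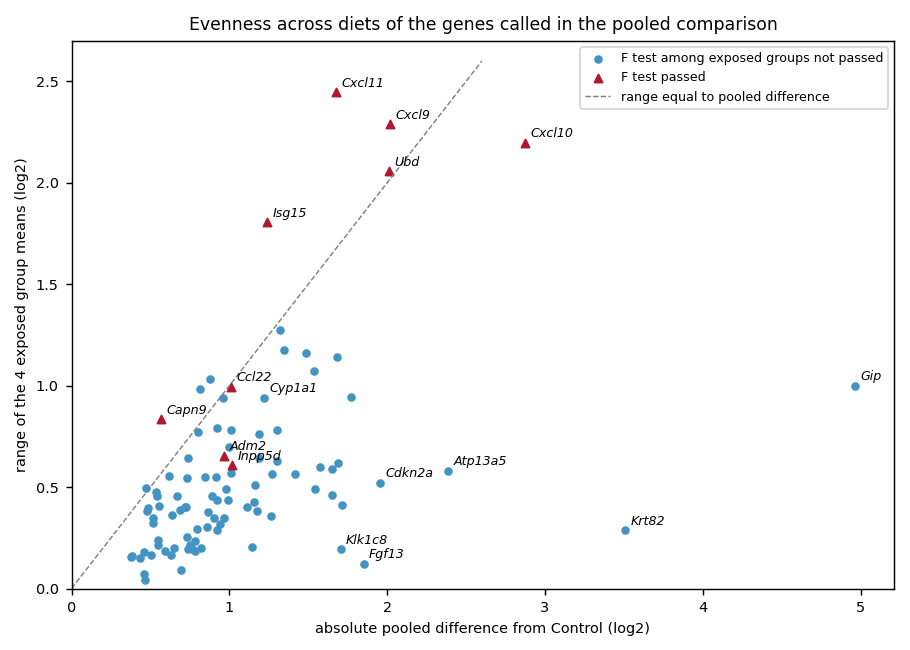
Range of the 4 exposed group means against the absolute pooled difference from Control for the 97 called genes, both in log2 units; triangles mark genes whose exposed groups also differed by the F test, and on the dashed line the range equals the difference. Krt82, Fgf13 and Klk1c8 lie near the bottom with small ranges, while Cxcl9, Cxcl11, Ubd, Isg15 and Capn9 lie above the line.

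The chemokine ligands of Cxcr3 rose in the pooled comparison, and by unequal amounts in the exposed groups. Cxcr3 is a receptor of activated T and NK cells, and Cxcl9, Cxcl10 and Cxcl11 are ligands whose genes interferon-gamma induces. Of the list of these 4 genes, 3 were called higher and 0 lower, and the median difference was 1.85 log2 units, against -0.01 over all genes tested. The list medians were 3.44 in the NMBA group and 1.57, 1.32 and 1.07 in the alpha, delta and gamma-enriched groups.

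Cxcl10 levels were -4.63 to 0.27 in exposed rats with a median of -2.02, against -5.30, -5.23, -4.50, -4.55 and -5.07 in Control rats. A single exposed rat, gamma-enriched rat 2 at -4.63, fell below the highest Control rat. Cxcl10 was higher by 4.36, 2.47, 2.50 and 2.16 log2 units in the NMBA, alpha, delta and gamma-enriched groups (pooled 7.33-fold, limma adjusted p = 4.95e-04), and it kept its call without the NMBA group (2.38, adjusted p = 0.0130). Cxcl9 was higher by 3.61, 1.76, 1.39 and 1.32 (pooled 2.02 ± 0.40, adjusted p = 0.0128) and Cxcl11 by 3.26, 1.37, 1.26 and 0.81 (pooled 1.68 ± 0.34, 0.0141). Cxcl9 was not called without Control rat 2 (1.87, adjusted p = 0.0509) and Cxcl11 was not called without Control rat 1 (1.47, 0.0547). Without the NMBA group neither passed, at 1.49 (0.100) and 1.15 (0.121). The receptor gene Cxcr3 did not pass in the pooled test (0.71 ± 0.33, adjusted p = 0.385), with differences of 1.90, 0.45, 0.34 and 0.17 in the same order of groups.

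Among 26 interferon-induced genes tested, Isg15 and Oas1a were called higher and 0 were called lower. The median difference was 0.30 log2 units pooled, 0.78 in the NMBA group and 0.11, 0.11 and -0.01 in the alpha, delta and gamma-enriched groups. Isg15, a ubiquitin-like protein, was higher by 2.39, 0.58, 1.08 and 0.91 (pooled 1.24 ± 0.24, limma adjusted p = 0.00858). Its exposed levels ran from -0.74 to 2.08, overlapping the Control range of -1.33 to -0.34. Oas1a, an antiviral oligoadenylate synthetase from a family of close copies, was higher by 2.22, 1.01, 0.94 and 1.1 (pooled 1.32 ± 0.29, adjusted p = 0.0256) and lost its call without Control rat 3 (1.25, adjusted p = 0.0886), 4 (1.41, 0.0538) or 5 (1.2, 0.120). Without the NMBA group Isg15 stood at 0.86 (0.108) and Oas1a at 1.02 (0.132).

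The windows of Cxcl10 and Oas1a are shown because both genes were called higher and both windows hold the ISRE letters. Capitals mark the ISRE core and TGANTCA.
Cxcl10, chr14:15988816-15989065, + strand: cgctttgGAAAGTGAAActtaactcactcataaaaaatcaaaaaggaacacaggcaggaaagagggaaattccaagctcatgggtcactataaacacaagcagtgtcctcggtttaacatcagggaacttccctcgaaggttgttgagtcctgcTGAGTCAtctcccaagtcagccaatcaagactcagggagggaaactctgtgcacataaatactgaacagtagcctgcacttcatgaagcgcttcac
Oas1a, chr12:41330216-41330465, + strand: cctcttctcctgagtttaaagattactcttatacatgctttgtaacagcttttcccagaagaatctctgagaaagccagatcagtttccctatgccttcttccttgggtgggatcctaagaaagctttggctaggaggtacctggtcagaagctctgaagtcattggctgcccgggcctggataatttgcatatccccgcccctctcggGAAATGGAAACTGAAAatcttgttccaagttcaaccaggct
In Cxcl10 the ISRE letters start 243 bases and the AP-1 letters 96 bases before the annotated start, and TATAAA is present as well. In Oas1a 2 overlapping ISRE matches start 41 and 35 bases before the start. The ISRE letters were found in 3.41% of all 33469 windows, in 14 of the 24 windows of the interferon and Cxcr3 lists (58.33%), and in 4 of the 66 windows of genes called higher (6.06%), those of Cxcl10, Oas1a, Mpp4 and Prss16.

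Genes that mark T and NK cells were not called in the pooled comparison. Of 20 tested, 0 were called by limma in either direction (7 at an unadjusted p under 0.05), although 17 differences were positive, with a median of 0.40 log2 units. That median was 1.28 in the NMBA group and 0.16, 0.12 and -0.12 in the alpha, delta and gamma-enriched groups, and 14 of the 20 differed among the exposed groups by the F test. With slide as a fixed block the pooled median was 0.04, within slide 3 it was 1.24, and within slide 2 it was -0.34. Cd27, a costimulatory receptor of T cells, stood at 3.83, 1.69, 1.55 and 0.94 (pooled 2.0 ± 0.57, adjusted p = 0.113; 0.0337 without delta rat 5 and 0.0448 with quantile normalization), and the granzyme gene Gzmk at 2.33, 0.28, 0.64 and 0.55 (pooled 0.95 ± 0.45, adjusted p = 0.392). The Cd27 probe was well above background on 13 of 20 exposed and 0 of 5 Control arrays, so the size of its difference is uncertain. The pooled Cd27 difference was 0.80 with normexp correction (limma adjusted p = 0.0822) and 1.39 without the NMBA group (0.237). The Gzmk probe was well above background on 18 of 20 exposed and 3 of 5 Control arrays. The mean score of the list ran from 0.05 to 1.70 in NMBA rats, -1.03 to 0.36 in alpha rats, -0.93 to 0.40 in delta rats and -1.27 to -0.05 in gamma-enriched rats, against -0.64 to 0.14 in Control rats. In whole epithelium, more cells of a type and more RNA per cell cannot be told apart.

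Of 10 MHC class II genes 0 were called by limma (0 at the unadjusted p) and 8 differed among the exposed groups, with a median of 0.09 log2 units pooled and 0.71 in the NMBA group. The pooled median of these genes was -0.13 with slide as a fixed block, 0.70 within slide 3 and -0.37 within slide 2. The transactivator gene Ciita stood at 1.22, 0.17, 0.34 and -0.16 in the NMBA, alpha, delta and gamma-enriched groups, and RT1-Ba at 0.41, 0.13, 0.46 and 0.81. Of 19 CC chemokine and receptor genes, 1 was called higher and 12 had negative differences. The called gene was Ccl22, whose product attracts T cells that carry Ccr4; it was higher by 1.61, 0.62, 0.84 and 0.97 (pooled 1.01 ± 0.17, limma adjusted p = 0.00283), with every exposed rat above every Control rat. Among inflammatory genes tied to NF-kB, 0 of 12 were called by limma (0 at the unadjusted p), with Cxcl2 at -0.72 ± 0.90 and Vcam1 at -0.62 ± 0.32. Of 15 eicosanoid genes 0 were called by limma (1 at the unadjusted p), and their median was -0.16.

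**Figure D4:**
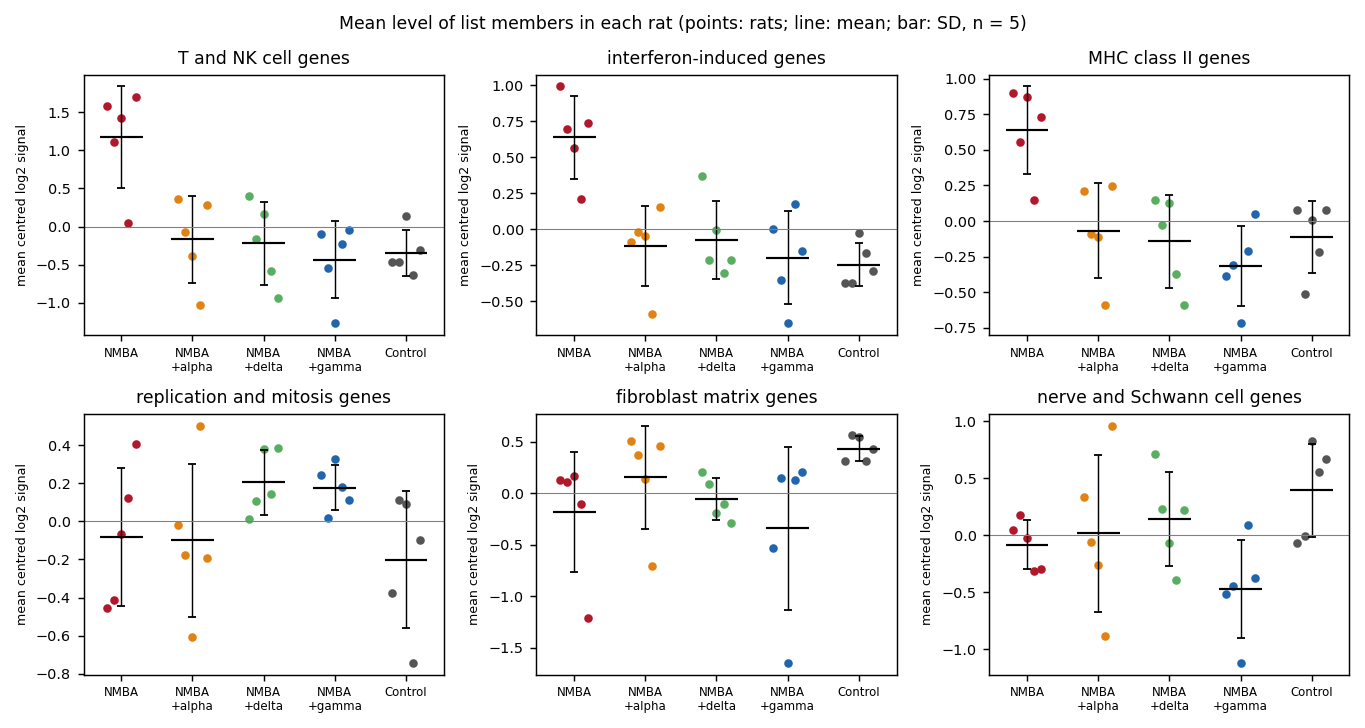
Mean level of the members of 6 gene lists in each rat, each member centred on its mean over all rats, in log2 units; lines and bars are group means and SDs (n = 5). The group mean is highest in NMBA rats for T and NK cell, interferon-induced and MHC class II genes, for which the tocopherol groups overlap Control, and the fibroblast matrix score reaches -1.65 in exposed rats against 0.31 to 0.57 in Control rats.

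Of 20 p53 target genes tested 0 were called by limma (5 at the unadjusted p), while 18 differences were positive with a median of 0.19 log2 units. The cyclin-dependent kinase inhibitor gene Cdkn1a had levels of 1.65 to 2.82 in exposed rats with a median of 2.06, against 1.11, 1.67, 1.73, 1.72 and 1.83 in Control rats. It stood at 0.81, 0.37, 0.36 and 0.35 in the NMBA, alpha, delta and gamma-enriched groups (pooled 0.47 ± 0.12, limma adjusted p = 0.0562), and its second probe gave 0.19. Cdkn1a passed with slide as a fixed block (0.86, adjusted p = 0.0423), with quantile normalization (0.49, 0.0203), with normexp correction (0.49, 0.0164), and without alpha rat 3 (0.49, 0.0435) or gamma-enriched rat 5 (0.49, 0.0428). It did not pass with its probes averaged (0.33, 0.303), without the NMBA group (0.36, 0.140), with the replicate number as a block (0.0943) or in 2 groups without diet (0.1575). Btg2, an antiproliferative p53 target, was close to the threshold as well (0.50 ± 0.12, adjusted p = 0.0558; 0.0335 to 0.0451 without NMBA rat 3, alpha rat 3 or alpha rat 5), and the ribonucleotide reductase gene Rrm2b stood at 0.55 ± 0.21 (0.269), its probe well above background on 14 of 20 exposed and 3 of 5 Control arrays.

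Mgmt, the alkylguanine repair gene, had levels of 0.02 to 1.21 in exposed rats with a median of 0.54, against 0.20, 0.04, 0.09, 0.26 and 0.25 in Control rats. It stood at 0.86, 0.43, 0.24 and 0.09 in the NMBA, alpha, delta and gamma-enriched groups, a pooled difference of 0.40 ± 0.13 that did not pass (adjusted p = 0.177), and its exposed groups differed by the F test (0.0202).

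Among 8 P450 and aryl hydrocarbon receptor genes tested, Cyp1a1 was the only call, a fall. Cyp2a3, the rat esophageal P450 that activates NMBA, ranged from -6.07 to -3.15 in exposed rats, against -3.91, -4.55, -3.79, -4.29 and -4.91 in Control rats, and stood at 0.14, -0.64, -0.75 and -0.68 in the NMBA, alpha, delta and gamma-enriched groups (pooled -0.48 ± 0.31, adjusted p = 0.531). Of 18 genes of the Nrf2 oxidant response and metallothioneins 0 were called by limma (1 at the unadjusted p), with Nqo1 at -0.04 ± 0.11, Gclm at 0.49 ± 0.38 and Mt1 at 0.34 ± 0.18. Of 19 glutathione transferases 0 were called (4 at the unadjusted p), with a median of -0.09. For Nqo1 the largest group difference was 0.16 log2 units in size.

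Cell cycle genes gave single calls. Of 17 G1 to S genes 1 was called: Cdkn2a, the locus of the INK4a and ARF growth inhibitors, was higher by 2.24, 1.87, 1.72 and 1.99 log2 units (pooled 1.95 ± 0.43, limma adjusted p = 0.0256). Its levels ran from -4.73 to -1.47 in exposed rats with a median of -2.87, against -3.90, -6.34, -4.52, -4.65 and -4.29 in Control rats, so the groups overlapped, and the call was lost without Control rat 2 (1.55, adjusted p = 0.106), 3 (2.01, 0.0583), 4 (1.98, 0.0788) or 5 (2.07, 0.0557). The cyclin genes Ccne1 and Ccnd1 stood at 0.98 ± 0.25 (adjusted p = 0.0601) and 0.25 ± 0.13 (0.451). Ccne1 passed without NMBA rat 3 (1.03, 0.0262), alpha rat 3 (1.03, 0.0332) or Control rat 2 (1.14, 0.0414).

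Of 23 replication and mitosis genes 1 was called, while 22 differences were positive with a median of 0.21 log2 units. The called gene was Tyms, thymidylate synthase, higher by 0.41, 0.68, 0.77 and 0.68 (pooled 0.64 ± 0.12, adjusted p = 0.00535). The proliferation marker Mki67 stood at 0.03 ± 0.26 (adjusted p = 0.975), with levels of 0.73 to 2.47 in exposed and 0.82 to 2.32 in Control rats, and its other probes gave 0.41 and 0.37. The list median was 0.45 with slide as a block and -0.07 within slide 3.

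Epithelial differentiation genes gave no call. Of 13 squamous differentiation genes 0 were called by limma (0 at the unadjusted p), with Krt1 at 0.30 ± 0.62 and Krt13 at -0.28 ± 0.15, and of 9 basal genes 0 (0 at the unadjusted p), with Itga6, an integrin subunit, at 0.24 ± 0.18. The list medians were -0.06 and -0.01, and 0.27 and 0.28 with slide as a fixed block. Among 10 glucocorticoid-induced genes 0 were called (3 at the unadjusted p): Zbtb16 stood at -2.32, -1.93, -0.35 and -0.22 in the NMBA, alpha, delta and gamma-enriched groups (pooled -1.2 ± 0.34, limma adjusted p = 0.103; F test 0.00637) and Fkbp5 at -1.56, -1.78, -0.51 and -0.59 (pooled -1.11 ± 0.28, 0.0615; 0.0424 without NMBA rat 1 and 0.0443 without alpha rat 5). Gip was the only call among 8 gut hormone and enteroendocrine genes tested, and the receptor gene Gipr stood at -0.73 ± 0.26 (adjusted p = 0.224).

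Markers of the tissue under the epithelium had negative differences without any call. All 13 fibroblast matrix genes had negative differences, with a median of -0.57 log2 units, as did all 8 smooth muscle genes (-0.34), all 8 endothelial genes (-0.39), all 12 macrophage genes (-0.30) and all 8 mast cell genes (-0.54). At the unadjusted p, limma gave 5 of the 13 fibroblast, 1 of the 8 smooth muscle, 0 of the 8 endothelial, 1 of the 12 macrophage and 2 of the 8 mast cell genes. Nerve and Schwann cell genes had a median of -0.63 over 9 members, with 7 negative and 6 under the unadjusted p. The lists for skeletal muscle, adipocytes, B cells, neutrophils, Langerhans cells, stress keratins and immediate early genes also gave 0 calls by limma, with 0 to 1 member each at the unadjusted p. The mean score of the fibroblast list was -1.65 to 0.50 in exposed rats, lowest in gamma-enriched rat 3 and NMBA rat 5, against 0.31 to 0.57 in Control rats. Within slides 3 and 2 the fibroblast median was -0.32 and -0.70, the smooth muscle median was -0.02 and 0.01, the macrophage median 0.19 and -0.76, and the mast cell median 0.03 and -1.27. The part of these cells in the calls was not tested; without NMBA rat 5 and gamma-enriched rat 3 together, 92 genes were called against 97 with them.

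**Figure D5:**
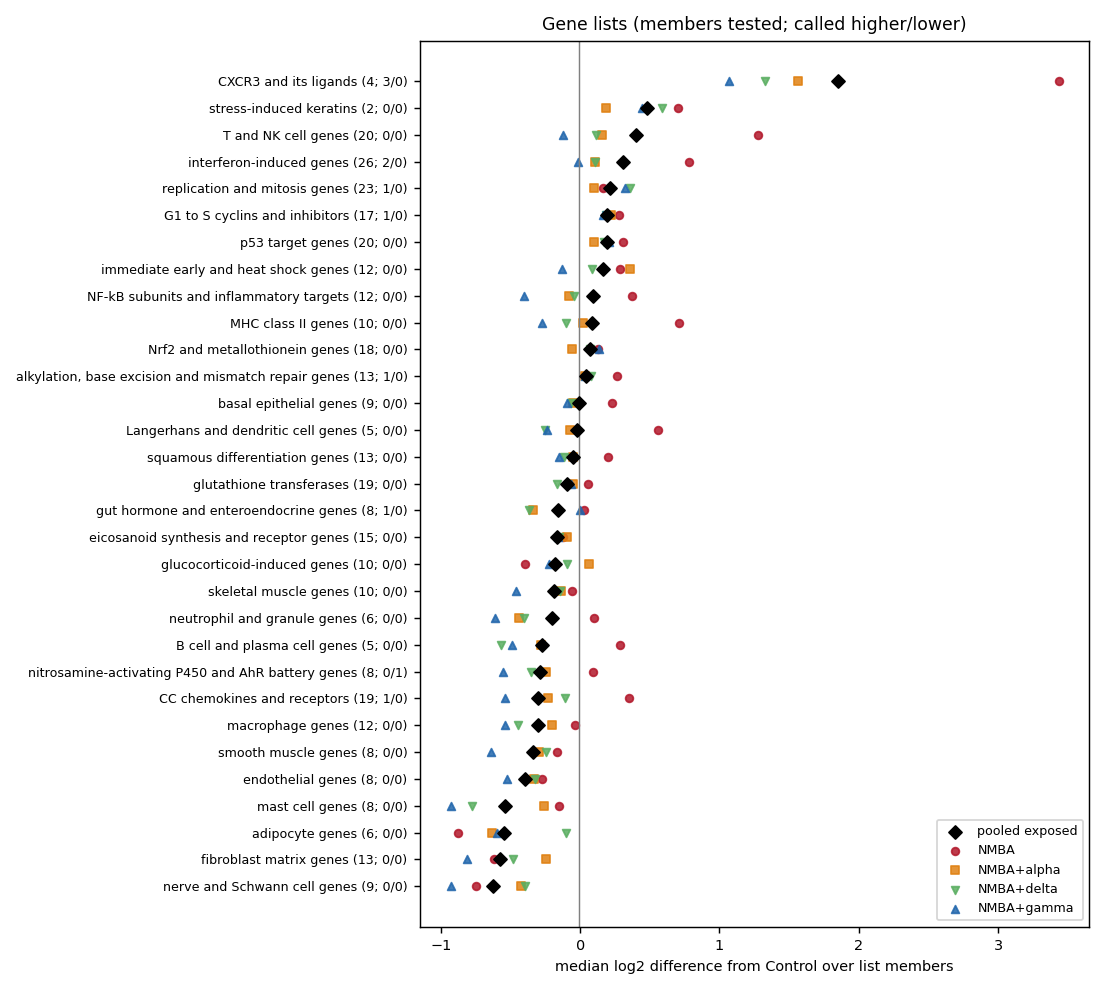
Median log2 difference from Control over the tested members of each list, pooled (diamond) and in each exposed group; the number tested and the numbers called higher and lower stand in brackets. The Cxcr3 list lies apart at 1.85, the others have pooled medians between -0.63 and 0.48, and the NMBA group is furthest right among T and NK cell, interferon-induced and MHC class II genes.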

How the data were processed

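Total RNA of the esophageal epithelium of each rat was hybridised to a 1-colour Agilent rat array. Per the file headers, the deposited intensity values are processed signals, background-subtracted within the array by Feature Extraction 11.5.1.1. Version 10.7 is the one in the submitters' processing notes. The authors' deposited value table is on a log2 scale and tracked the log2 intensities of the same arrays, with its 75th percentile near 0. It served as an alternative. There were 0 value columns outside the series.

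After removal of outlier spots, processed signals were put on the log2 scale, averaged over the spots of each probe and set relative to the array's 75th percentile. Probes were named through their RefSeq accession with a GRCr8 table. The array was annotated on an older assembly, so the table gave names only. A gene took its brightest probe among those well above background on at least 5 arrays, which left 12343 genes, 2035 with several kept probes. With limma 3.58.1 in R 4.3.3, a mean per group was estimated from the 25 arrays together (20 residual degrees of freedom, prior 3.17), and the contrast was the mean of the 4 exposed means minus Control, two-sided, Benjamini-Hochberg adjusted, threshold 0.05. The largest of the 4 group p-values and an F test among exposed groups came from the same fit. The spread is that between rats, 1 array each.

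Alternatives were normexp with offset 50 and quantile normalization (on median signals, since mean signals are not used here), quantile normalization alone, the value table, other filters, averaged probes, slide as a fixed or random block, replicate number as a block, slides taken singly, 2 groups without diet, and fits without a rat or an exposed group. Leaving out NMBA rat 5 and gamma-enriched rat 3 together was chosen after seeing the data. In simulated data for the pooled comparison on 12343 genes, without slide or diet differences, 74% of 100 genes set to differ by 1 log2 unit and 98% of 100 set to 2 were recovered, with 7 unchanged genes called. The test in each exposed group recovered 52% and 86% of them, with 0 unchanged genes called.

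Genes named are 52: the 12 largest rises and 10 largest falls without overlap (there were 3), the 6 most even, the 6 smallest F-test p-values, up to 4 called members of each list or 2 uncalled, and 11 fixed genes. Provisional symbols were passed over. Results for 2 of these genes are not reported here. The rats compared, the 31 lists of 442 genes and the tests were chosen with earlier results of these data known.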

Additional observations from a re-analysis of the deposited data

Results flagged for a closer look

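Among the 52 named genes in 5 groups, 17 of 260 sets of 5 rats held 1 animal far from the other 4, and chance alone gives about 1 in 20. Levels are log2 signal over the array's 75th percentile. Gamma-enriched rat 4 was high at Gip (-1.49, next -2.29) and at Sdc3 (-1.04, next -1.35). Alpha rat 2 was low at Atp13a5 (-5.24, next -4.22), alpha rat 3 high at Mat1a (-2.50, next -5.24) and alpha rat 1 low at RT1-Ba (-5.08, next -4.09). Delta rat 2 was high at Fkbp5 (0.90, next 0.68). Gamma-enriched rat 3 was low at Ccl22 (-3.81, next -3.43) and Ciita (-3.21, next -2.75) and high at Ccnd1 (2.48, next 2.07) and Nqo1 (3.99, next 3.46). Control rat 1 was low at Btnl5 (-9.0, next -8.27), Cxcl11 (-5.76, next -4.83), Krt13 (4.68, next 5.36) and Cdkn1a (1.11, next 1.67). Control rat 2 was low at Klk1c8 (-6.27, next -5.12), Ccl22 (-5.39, next -4.40) and Ccnd1 (1.83, next 2.10). Control rat 1 was the Control animal on slide 2.

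The 4 exposed groups differed from each other by limma's F test, adjusted over all genes, at 14 of the 52. Adjusted p was 0.00631 for Isg15, 0.00678 for Cxcl11, 0.0166 for Cxcl9, 0.0303 for Cxcl10, 0.0295 for Cxcr3 and 0.0250 for Ccl22. It was 0.0472 for Cd27, 0.00867 for Ciita and 0.0273 for Inpp5d. In all 9 the NMBA group stood furthest above Control. It was 0.0131 for Capn9, 0.0350 for Krt13, 0.0202 for Mgmt, 0.00637 for Zbtb16 and 0.0358 for Fkbp5. Zbtb16 and Fkbp5 were lower in NMBA and alpha than in delta and gamma-enriched rats.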

How the results depend on the processing

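The count of 97 genes called between exposed and Control rats became 158 with normexp correction and quantile normalization, 11 with slide as a fixed block, 33 within slide 3 and 2 within slide 2, where fewer rats entered. Without 1 rat it lay between 46 (without Control rat 4) and 118 (without NMBA rat 4 or alpha rat 5). The count in each exposed group, 7, became 3 with slide as a fixed block and lay between 5 and 8 without 1 rat. The F-test count of 827 became 2608 with no filter on dim probes, 1 with slide as a fixed block and 534 with a replicate block, and lay between 382 (without NMBA rat 1) and 1231 (without alpha rat 4); it was 420 without NMBA rat 2 and 412 without NMBA rat 3. The 23 genes without overlap became up to 40 (without Control rat 1) and 38 (without Control rat 3), and were not fewer than 23 in any fit that left out 1 rat. The causes of these shifts were not tested. With the replicate number as a block, 73 genes were called against Control and 6 in each group. Same-numbered rats of different groups had deviations correlated at -0.584 to 0.529 (median -0.053). For other-numbered rats the range was -0.512 to 0.621 (median 0.009), so rats that shared a number were no more alike in expression. This does not settle whether the numbers mark matched animals. Over the alternatives, 2020 of the named genes' values kept their side of the threshold, 135 lost a call, 26 gained one and 0 calls reversed. Most alternatives leave out 1 rat and share all others, and the value table tracks the same intensities, so few values could move there. The losses gathered in the slide settings: of the 52 named genes, 25 lost a call with slide as a fixed block and 15 within slide 3. Differences that were not called could change sign. With slide as a fixed block RT1-Ba went from 0.45 to -1.30 and Krt13 from -0.28 to 0.22. Mean signals of the arrays are not used here, so normexp ran on median signals. On the arrays 70.6% to 79.8% of spots were well above background. The folds given for called genes below it on every Control array are lower bounds for the processed signals only.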

Other observations

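Further genes were called in the pooled comparison and kept the call in each of the 25 fits that left out 1 rat; those named here were chosen after their values were seen. They include developmental and signalling genes. The zinc finger factor gene Gata3 was higher by 1.35, 0.65, 1.24 and 0.75 log2 units in the NMBA, alpha, delta and gamma-enriched groups (pooled 1.0 ± 0.18, limma adjusted p = 0.00479), and the homeobox gene Dlx5 by 0.68, 0.52, 0.67 and 0.64 (pooled 0.63 ± 0.12, 0.00882). Bmp3, a growth factor of the bone morphogenetic protein family, was higher by 1.78, 2.13, 1.06 and 1.18 (pooled 1.54 ± 0.25, 0.00167). The matrix metalloproteinase gene Mmp10 was higher by 1.82, 1.62, 1.41 and 1.33 (pooled 1.54 ± 0.25, 0.00178) and also passed with slide as a fixed block (2.11, 0.0484). The cytokine gene Il18 differed by nearly the same amount in each group, at 0.68, 0.72, 0.73 and 0.64 (pooled 0.69 ± 0.11, 0.00179), but stood at 0.43 with slide as a block (0.538). The claudin gene Cldn10, of tight junctions, fell by 0.79, 0.92, 0.90 and 1.08 (pooled 0.92 ± 0.15, 0.00239).

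Ttpa encodes the alpha-tocopherol transfer protein, which carries vitamin E in liver cells. It was higher by 0.96 log2 units in the NMBA group, which ate the normal diet, and by 1.07, 0.74 and 1.09 in the alpha, delta and gamma-enriched groups (pooled 0.97 ± 0.20, limma adjusted p = 0.0184). The call was lost without Control rat 4 (0.86, 0.110) or Control rat 5 (0.83, 0.116). The folate and one-carbon enzyme genes Mthfd2 and Shmt2 were higher by 0.98 ± 0.22 (adjusted p = 0.0267) and 0.38 ± 0.08 (0.0147), and both lost the call without Control rat 4 (0.191 and 0.0857) or 5 (0.120 and 0.0513), Mthfd2 also without Control rat 3 (0.0714).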
